A study of Chlorocebus sabaeus with 3 samples.

Results

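The genes described here are 30 genes whose variants are tied to human neurodevelopmental disorders, among them autism, epilepsy and syndromic intellectual disability. They were chosen by name, with earlier results of these data known, and all 30 were listed among the 33994 genes of each file. The RNA was the cell-free RNA of amniotic fluid supernatant from vervet monkeys (Chlorocebus sabaeus), an Old World primate, and it was amplified with the SPIA chemistry before sequencing. There were 3 libraries: 1 from a pregnancy labelled stillborn (sex label M), 1 labelled spontaneous abortion (sex label NA) and 1 labelled alive (sex label F). All 3 are the same kind of fluid, and the labels name no treatment, genetic change or gestational age. With 1 library for each status there is no replicate check. Every comparison is of a library with a library, without a p-value, and status, animal and sex label cannot be told apart.

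Most of these genes act in the nucleus. Chromatin remodellers slide or evict nucleosomes, histone methyltransferases and demethylases write and erase marks on promoters and enhancers, and the cohesin loader and Mediator link enhancers to promoters. A minority act elsewhere, in growth signalling, in control of translation and protein turnover, or at the neuronal membrane and synapse. The nuclear genes are expressed in many fetal tissues, while the synaptic genes are expressed mainly in neurons. Cell-free RNA of amniotic fluid comes from fetal surfaces in contact with the fluid and from placenta and membranes, so its source cells are mixed. In such a bulk sample fewer cells of a type and less RNA per cell cannot be told apart.

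The libraries held 17749954 assigned reads from the stillborn, 29926352 from the spontaneous abortion and 20220899 from the alive pregnancy. Levels are RPKM, reads for a given length of gene, scaled to the library's assigned reads, as deposited. Whole reads were recovered from these values and are lower bounds. A ratio between libraries is the ratio of reads after scaling by TMM (trimmed mean of M-values), with an exact Clopper-Pearson 95% interval that covers counting error only. A gene was compared if it had at least 90 reads summed over the 3 libraries. It was counted as apart if its ratio was at least 2-fold and its interval excluded 1. Of the 30 genes, 27 reached the read minimum and 3 did not, against 13105 of 33994 over all genes. The 3 below it were TBR1, SCN2A and SHANK3.

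Most of the nuclear genes were present in all 3 fluids and the 4 genes of synapse and membrane were listed at low RPKM. Of the 30 genes, 18 (stillborn), 21 (spontaneous abortion) and 20 (alive) reached RPKM 1. The 30 genes together took 0.360% (stillborn), 0.508% (spontaneous abortion) and 0.574% (alive) of assigned reads. Their summed RPKM was 99.5 (stillborn), 146 (spontaneous abortion) and 166 (alive). The stillborn library was the lowest of the 3 for 25 of the 27 genes compared, the alive library for 2 and the spontaneous abortion library for 0. Over all genes compared the stillborn library was lowest for 40.5%, the alive library for 37.1% and the spontaneous abortion library for 22.4%.

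**Figure D1:**
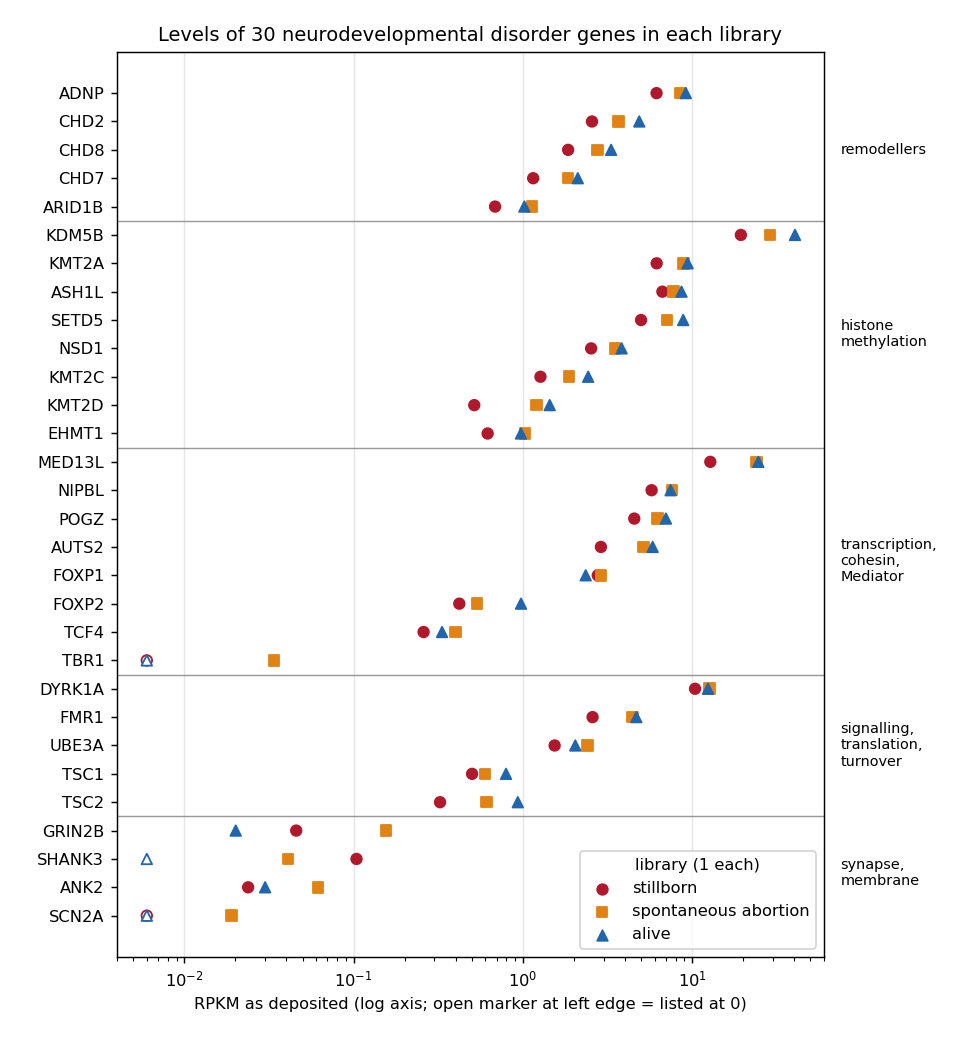
RPKM of each of the 30 genes (log axis) in the stillborn, spontaneous abortion and alive library, 1 marker per library, grouped by role and sorted by mean RPKM. Open markers at the left edge are values listed at 0. In most rows the stillborn marker is the leftmost, and the 4 genes of synapse and membrane lie below RPKM 0.2 in every library.

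The lengths behind the RPKM values bear on any order of levels between genes. The recovered length was 7390 bases for KDM5B, 38207 for FMR1, 104740 for TSC1, 202884 for FOXP2 and 423532 for ANK2. Several of these far exceed the known human messenger RNAs of the same genes. How the authors set the length was not stated, and a gene with a long one is listed at a low RPKM for its number of reads. SETD5 led in reads, with 41866 over the 3 libraries, but was 7th in mean RPKM at 6.97. KDM5B led in mean RPKM at 29.6 but was 10th in reads with 14978. The length cancels in the arithmetic of a ratio between libraries.

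Among the chromatin remodellers, all 5 genes were lowest in the stillborn library. ADNP, a zinc finger protein that works with the remodeller CHD4, had RPKM 6.16 (stillborn), 8.53 (spontaneous abortion) and 9.17 (alive). CHD8, a chromodomain helicase often mutated in autism, had 1.85 (stillborn), 2.76 (spontaneous abortion) and 3.32 (alive). CHD2, its relative tied to childhood epilepsy, had 2.56 (stillborn), 3.67 (spontaneous abortion) and 4.87 (alive). These 3, and CHD7 with them, shared the order stillborn, spontaneous abortion, alive from low to high. CHD7, the helicase of CHARGE syndrome, had 1.15 (stillborn), 1.85 (spontaneous abortion) and 2.11 (alive). ARID1B, a DNA-binding subunit of the BAF remodelling complex, had 0.685 (stillborn), 1.13 (spontaneous abortion) and 1.02 (alive). Stillborn over alive ratios of the 5 ran from 0.588 (0.558 to 0.620) for CHD2 to 0.753 (0.721 to 0.785) for ADNP. None was apart in any comparison, and their median log2 ratio was -0.68 for stillborn over alive and -0.16 for spontaneous abortion over alive.

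The 8 enzymes of histone methylation were likewise all lowest in the stillborn library. KMT2D, the enhancer methyltransferase of Kabuki syndrome, had RPKM 0.516 (stillborn), 1.20 (spontaneous abortion) and 1.44 (alive), from 776 (stillborn), 3035 (spontaneous abortion) and 2472 (alive) reads. The stillborn value lay well below both others, which differed by less, at a spontaneous abortion over alive ratio of 0.853 (0.808 to 0.899). KMT2D was apart as lower in the stillborn library against the alive one, at a ratio of 0.400 (0.369 to 0.434), and against the spontaneous abortion, at 0.469 (0.433 to 0.508). Its relative KMT2C had 1.27 (stillborn), 1.87 (spontaneous abortion) and 2.43 (alive). KMT2A, the founding member of that family, had 6.17 (stillborn), 8.87 (spontaneous abortion) and 9.40 (alive). Both were short of 2-fold for stillborn over alive, KMT2C at 0.586 (0.566 to 0.606) and KMT2A at 0.734 (0.700 to 0.769).

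KDM5B, a demethylase that removes an activating mark, had RPKM 19.4 (stillborn), 28.9 (spontaneous abortion) and 40.5 (alive). This was the highest level of the 30 genes in all 3 libraries. Its stillborn over alive ratio was 0.536 (0.512 to 0.562). On total assigned reads alone it was 0.479 and passed 2-fold. SETD5, a SET domain protein, had 4.99 (stillborn), 7.09 (spontaneous abortion) and 8.85 (alive). NSD1, the methyltransferase of Sotos syndrome, had 2.53 (stillborn), 3.49 (spontaneous abortion) and 3.83 (alive). ASH1L, a methyltransferase of active chromatin, varied less, at 6.67 (stillborn), 7.78 (spontaneous abortion) and 8.65 (alive), with a stillborn over alive ratio of 0.863 (0.836 to 0.890). EHMT1, a methyltransferase that writes a repressive mark, had 0.619 (stillborn), 1.03 (spontaneous abortion) and 0.974 (alive), and was the only one of the 8 enzymes with a spontaneous abortion over alive ratio above 1, at 1.09 (0.980 to 1.22). The median log2 ratio of the 8 was -0.58 for stillborn over alive and -0.17 for spontaneous abortion over alive.

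Of the 7 transcription factors and coregulators compared, 6 were lowest in the stillborn library, and FOXP1 in the alive one. MED13L, a subunit of the Mediator kinase module, had RPKM 12.8 (stillborn), 24.0 (spontaneous abortion) and 24.6 (alive). The spontaneous abortion over alive ratio was 1.0 (0.974 to 1.04) and the stillborn over alive ratio was 0.583 (0.558 to 0.608). NIPBL, which loads cohesin onto DNA and is mutated in Cornelia de Lange syndrome, had 5.76 (stillborn), 7.60 (spontaneous abortion) and 7.46 (alive), a narrower range. POGZ, a zinc finger protein of heterochromatin, had 4.55 (stillborn), 6.22 (spontaneous abortion) and 7.0 (alive). AUTS2, a partner of a Polycomb complex, had 2.89 (stillborn), 5.15 (spontaneous abortion) and 5.84 (alive). AUTS2 stood at 0.554 (0.502 to 0.611) in the stillborn library over the alive one, and at 0.495 on total assigned reads alone.

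The forkhead repressors FOXP1 and FOXP2, both tied to speech and language disorders, went opposite ways. FOXP2 had RPKM 0.421 (stillborn), 0.535 (spontaneous abortion) and 0.975 (alive), from 1516 (stillborn), 3247 (spontaneous abortion) and 3998 (alive) reads. The alive library stood above both losses. FOXP2 was apart as lower for stillborn over alive, at 0.483 (0.455 to 0.513), and was at 0.564 (0.538 to 0.591) for spontaneous abortion over alive. FOXP1 had RPKM 2.77 (stillborn), 2.90 (spontaneous abortion) and 2.35 (alive), so the alive library was the lowest. Its ratio to the alive library was 1.32 (1.27 to 1.37) for stillborn and 1.26 (1.22 to 1.31) for spontaneous abortion, neither of them apart. Stillborn over spontaneous abortion was 1.04 (1.01 to 1.08) for FOXP1, and 0.958 on total assigned reads alone.

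TCF4, the basic helix-loop-helix factor of Pitt-Hopkins syndrome, had RPKM 0.259 (stillborn), 0.401 (spontaneous abortion) and 0.333 (alive), and its highest value was in the spontaneous abortion. TBR1, a T-box factor of the developing cortex, was listed at 0 in the stillborn and alive libraries and at 0.0338 in the spontaneous abortion, from 3 reads. At this depth no difference could be detected for TBR1. Over the 7 factors and coregulators compared the median log2 ratio was -0.46 for stillborn over alive and 0.01 for spontaneous abortion over alive.

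Of the genes of signalling, translation and protein turnover, TSC2 stood farthest from even. TSC1 and TSC2 encode the partners of the tuberous sclerosis complex, which restrains the growth kinase mTOR. TSC2 had RPKM 0.324 (stillborn), 0.610 (spontaneous abortion) and 0.933 (alive), from 382 (stillborn), 1212 (spontaneous abortion) and 1252 (alive) reads. The 3 libraries were well separated, with stillborn lowest. TSC2 was apart as lower for stillborn over alive, at 0.389 (0.346 to 0.436), the lowest such ratio of the 27 genes. TSC1 had RPKM 0.501 (stillborn), 0.596 (spontaneous abortion) and 0.795 (alive), with a stillborn over alive ratio of 0.706 (0.651 to 0.765).

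FMR1, the X-linked gene of fragile X syndrome whose product binds messenger RNA, had RPKM 2.58 (stillborn), 4.44 (spontaneous abortion) and 4.68 (alive). Its stillborn over alive ratio was 0.618 (0.583 to 0.654), and the sex labels of those libraries were M and F. UBE3A, the ubiquitin ligase of Angelman syndrome, had 1.54 (stillborn), 2.40 (spontaneous abortion) and 2.04 (alive). It was highest in the spontaneous abortion, at 1.21 (1.14 to 1.29) over the alive library. DYRK1A, a kinase encoded in the region tied to Down syndrome, stood closest to even of these 5 genes, at RPKM 10.4 (stillborn), 12.7 (spontaneous abortion) and 12.4 (alive). Its stillborn over alive ratio was 0.940 (0.895 to 0.988). The 5 genes had a median log2 ratio of -0.50 for stillborn over alive and -0.03 for spontaneous abortion over alive.

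Of the 4 genes of synapse and membrane, GRIN2B, SHANK3 and SCN2A had few reads, while ANK2 had 1218 over the 3 libraries and a low RPKM on its long length. GRIN2B, an NMDA receptor subunit, had RPKM 0.0458 (stillborn), 0.155 (spontaneous abortion) and 0.0201 (alive), from 14 (stillborn), 80 (spontaneous abortion) and 7 (alive) reads. It reached the read minimum through the spontaneous abortion library, where it stood above both others. The ratio was 7.94 (3.68 to 20.4) for spontaneous abortion over alive and 0.321 (0.168 to 0.571) for stillborn over spontaneous abortion. For stillborn over alive it was 2.55, with a wide interval of 0.963 to 7.46. ANK2, an ankyrin that anchors membrane proteins in neurons and heart muscle, had RPKM 0.0238 (stillborn), 0.0617 (spontaneous abortion) and 0.0300 (alive), from 179 (stillborn), 782 (spontaneous abortion) and 257 (alive) reads. It too was highest in the spontaneous abortion, at 2.11 (1.83 to 2.44) over the alive library, while stillborn over spontaneous abortion was 0.420 (0.355 to 0.495). These were the only 2 genes apart as higher in the spontaneous abortion over the alive library.

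SHANK3, a scaffold of excitatory synapses, had 6 (stillborn), 4 (spontaneous abortion) and 0 (alive) reads. SCN2A, a neuronal sodium channel, had 0 (stillborn), 5 (spontaneous abortion) and 0 (alive) reads. Both genes' numbers are too low for a comparison. Of 23 listed markers of neurons and neural progenitors 6 were at 0 in all 3 libraries, namely DCX, NEUROD2, NEUROD6, EOMES, ELAVL3 and GAD2. The summed RPKM of that list was 7.97 (stillborn), 6.43 (spontaneous abortion) and 9.44 (alive). Most of each sum came from NES and SYN1. NES had 0.484 (stillborn), 1.02 (spontaneous abortion) and 4.16 (alive), and was the gene that put the alive sum highest. SYN1, a synaptic vesicle gene, had 6.64 (stillborn), 4.81 (spontaneous abortion) and 4.70 (alive) of these sums. Its human intron holds another gene, TIMP1, on the opposite strand, and the strand setting behind these values was not stated. Of the 23 markers only 3 reached the read minimum, namely MAP2, NES and SYN1. The stillborn over alive ratio was 0.130 (0.0951 to 0.175) for NES and 1.58 (1.42 to 1.76) for SYN1. For MAP2 it was 11.8 (7.42 to 19.8), from 185 (stillborn), 92 (spontaneous abortion) and 20 (alive) reads. NES and MAP2 thus passed 2-fold in opposite directions.

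The stillborn over alive comparison asks how the fluid of a stillbirth differed from that of a live pregnancy. Most of the 27 genes lay on the low side, with log2 ratios from -1.36 for TSC2 to 1.35 for GRIN2B. The ratio was below 1 for 25 of them, against 51.0% of all genes compared, and its interval lay below 1 for 24, against 38.3%. FOXP1 and GRIN2B were the 2 above 1, against 49.0% of all genes. The interval of FOXP1 lay above 1, against 36.6% of all genes, and those of ANK2 and GRIN2B held 1. The median log2 ratio was -0.49, against -0.02 over all genes. Few genes passed the 2-fold limit. KMT2D, FOXP2 and TSC2 were apart as lower and 0 as higher, while over all genes 11.3% were apart as lower and 11.9% as higher. The 3 of 27 are close to the share over all genes. At 4-fold 0 of the 27 were apart in either direction, against 3.56% higher and 2.29% lower over all genes.

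On total assigned reads alone, the scale of the deposited RPKM, the median of all genes moved to -0.18 and that of the 27 genes to -0.65. With that scaling 5 of the 27 were apart as lower and 0 as higher, while over all genes 14.9% were lower and 9.49% higher.

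**Figure D2:**
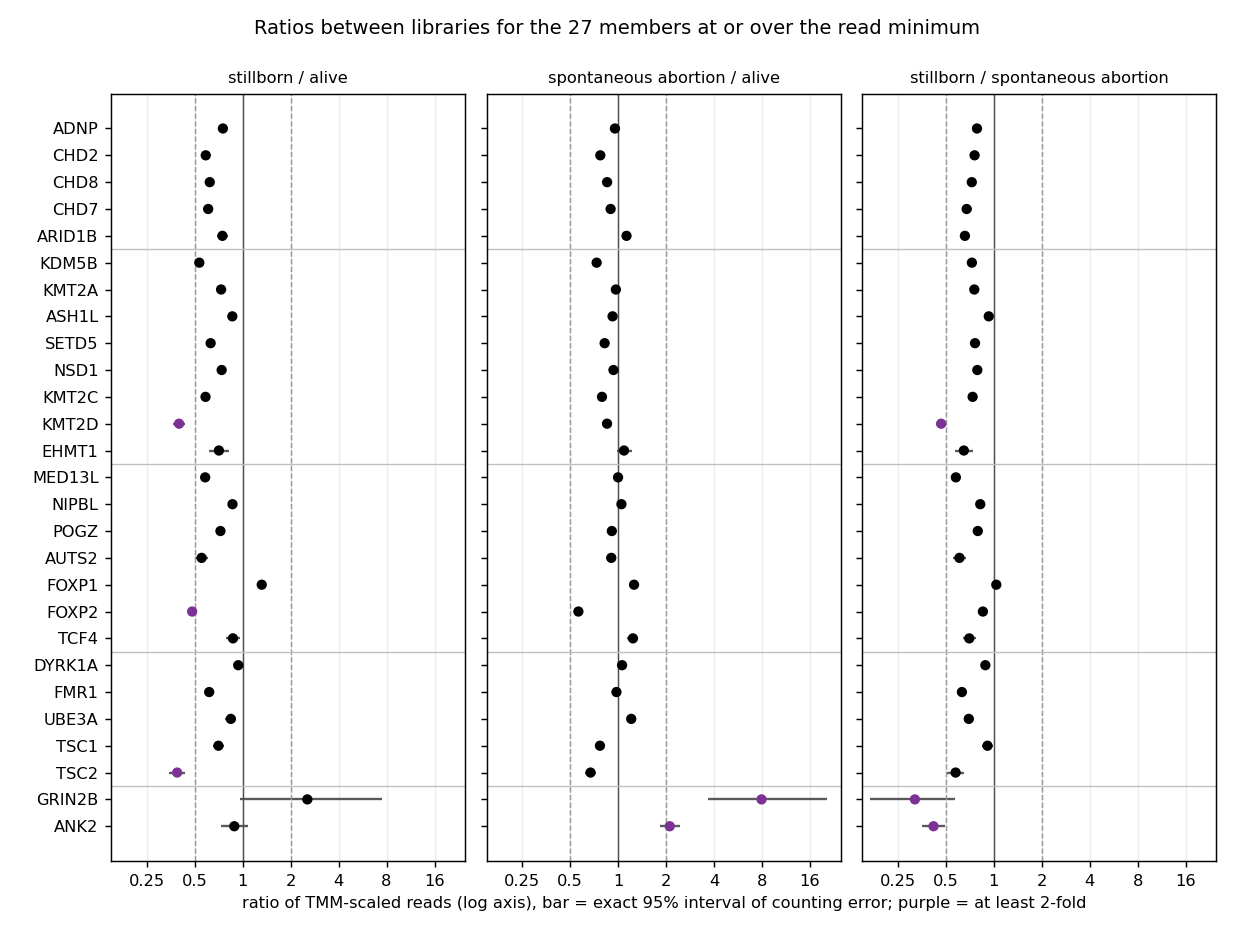
Ratios of TMM-scaled reads (log axis) with exact 95% intervals for the 27 genes at or over the read minimum, in 3 panels, 1 per pair of libraries. Solid lines mark 1 and dashed lines mark 2-fold either way, and purple points are genes apart. In the panels of stillborn over alive and stillborn over spontaneous abortion nearly all points lie left of 1, while in spontaneous abortion over alive they lie on both sides.

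For these genes the spontaneous abortion library lay nearer to the alive one. The comparison asks the same question of the other loss. The ratio was below 1 for 17 of the 27 genes and above 1 for 10, against 49.3% and 50.7% of all genes. The interval lay below 1 for 15, above 1 for 8 and held 1 for KMT2A, FMR1, EHMT1 and MED13L, while over all genes it lay below 1 for 33.7% and above 1 for 34.3%. The median log2 ratio was -0.10, against 0.01 over all genes. ANK2 and GRIN2B were apart as higher and 0 genes as lower, against 6.20% higher and 4.62% lower over all genes. GRIN2B reached the read minimum only through the spontaneous abortion library, where it was high, so its calls carry no weight of their own. With at least 300 summed reads, which leaves out GRIN2B, ANK2 alone was apart as higher. At that minimum 3.87% of all genes were higher and 2.42% lower. At 4-fold GRIN2B alone was apart, as higher, against 1.49% higher and 0.840% lower over all genes. Among genes short of 2-fold, FOXP2 was lowest at 0.564 and TSC2 followed at 0.672 (0.621 to 0.728). The direction of MED13L turned with the scaling, at 1.0 (log2 0.01) with TMM and 0.977 on total assigned reads.

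Stillborn over spontaneous abortion, which sets the losses against each other, gave a shift of nearly the size of that against the alive library. The ratio was below 1 for 26 of the 27 genes, all but FOXP1, and the intervals of the same 26 lay below 1, against 53.2% and 36.4% of all genes. The ratio and the interval lay above 1 for FOXP1, against 46.8% and 31.7% of all genes. On total assigned reads all 27 were below 1. The median log2 ratio was -0.45, against -0.04 over all genes. KMT2D, ANK2 and GRIN2B were apart as lower and 0 genes as higher, against 6.22% lower and 6.30% higher over all genes, or 8.27% lower and 5.06% higher on total assigned reads. GRIN2B reached the read minimum only through the spontaneous abortion library, where it was high. With at least 300 summed reads, which leaves out GRIN2B, 2 genes were apart as lower, against 4.18% lower and 3.82% higher over all genes. At 4-fold 0 of the 27 were apart, against 1.85% higher and 0.954% lower over all genes. Both comparisons use the stillborn library, so their like shifts are not independent.

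**Figure D3:**
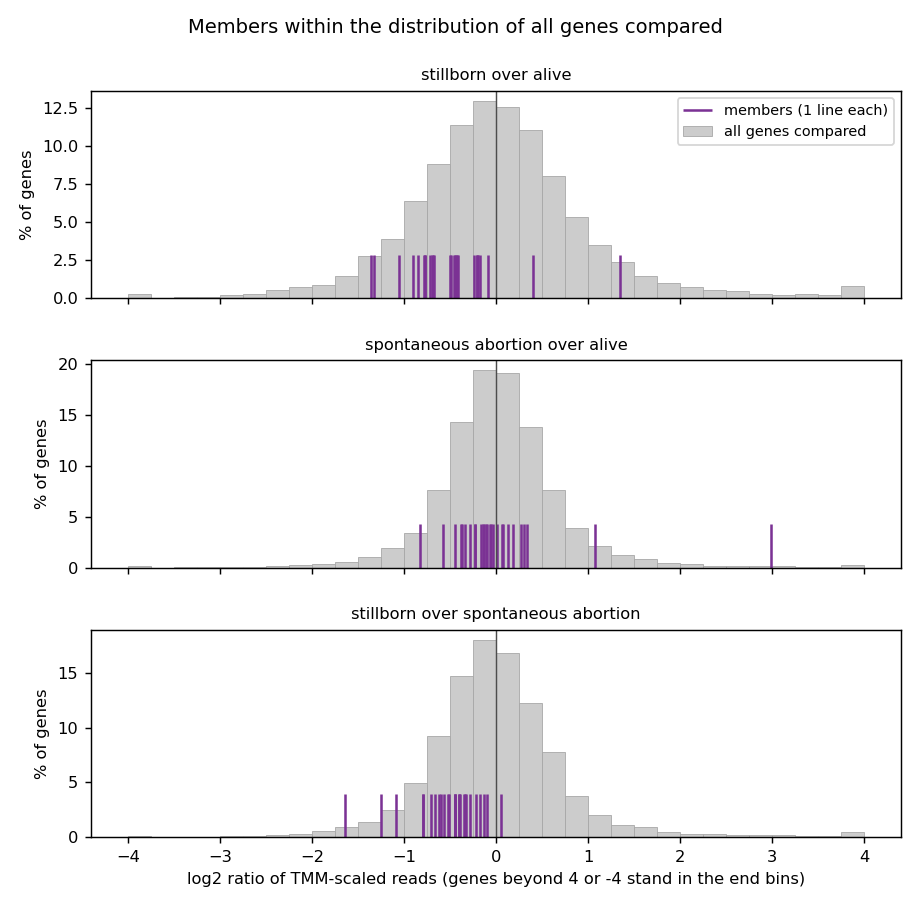
Distribution of the log2 ratio of TMM-scaled reads over all genes compared (grey bars, percent of genes in bins of 0.25) with 1 purple line for each of the 27 genes, in 3 panels, 1 per pair of libraries. For stillborn over alive and stillborn over spontaneous abortion the lines gather between 0 and -1 within the bulk of the genes, and for spontaneous abortion over alive they gather around 0.

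Partners and relatives of these genes, 154 of 161 listed by name, lay on the same side. Of the 136 that reached the read minimum, 103 were below 1 for stillborn over alive, against 51.0% of all genes. For stillborn over spontaneous abortion 108 were below 1, against 53.2%. The median log2 ratios were -0.44 and -0.31. For stillborn over alive 23 were apart as lower and 7 as higher, against 11.3% and 11.9% of all genes. For stillborn over spontaneous abortion 10 were apart as lower and 4 as higher, against 6.22% and 6.30%. The 10 of 136 are close to the share over all genes. The stillborn library was lowest for 99 of the 136, against 40.5% over all genes. For spontaneous abortion over alive 84 were below 1, against 49.3% of all genes, and the median was -0.11. In that comparison 3 were apart as higher and 1 as lower, against 6.20% and 4.62% over all genes. The counts by list rest on few genes each, and several lie near these shares.

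Subunits of the BAF complex, which ARID1B belongs to, had a median of -0.60 for stillborn over alive, with 3 of 21 apart as lower and 1 as higher. SMARCC1, a core subunit, had RPKM 25.3 (stillborn), 32.9 (spontaneous abortion) and 72.8 (alive). SMARCB1, another core subunit, had 2.61 (stillborn), 5.53 (spontaneous abortion) and 7.38 (alive). Both were apart as lower for stillborn over alive. BRD7, a subunit of the variant complex PBAF, was at 22.5 (stillborn), 25.3 (spontaneous abortion) and 34.1 (alive), short of 2-fold.

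Of the other CHD remodellers, CHD3 and CHD4, the helicases of the NuRD complex, were apart as lower for stillborn over alive. CHD4 had RPKM 1.82 (stillborn), 3.93 (spontaneous abortion) and 5.63 (alive), and CHD3 had 1.88 (stillborn), 3.14 (spontaneous abortion) and 5.20 (alive). CHD9 and CHD1 did not share this, with log2 ratios of 0.04 and 0.21. Partners of the KMT2 enzymes had a median of -0.49 over 16 genes, with 2 apart as lower. These were KMT2B, the closest relative of KMT2A, at 0.218 (stillborn), 0.616 (spontaneous abortion) and 0.638 (alive), and HCFC1, a cofactor of promoter complexes, at 0.678 (stillborn), 1.56 (spontaneous abortion) and 2.41 (alive). DPY30, a core subunit, was near even at 21.0 (stillborn), 22 (spontaneous abortion) and 25 (alive).

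Other enzymes of histone methylation had 5 of 11 apart as lower for stillborn over alive and a median of -0.65. KDM5A, the nearest relative of KDM5B, had RPKM 6.34 (stillborn), 13.8 (spontaneous abortion) and 16.4 (alive). The demethylase KDM1A had 4.85 (stillborn), 10.8 (spontaneous abortion) and 13.8 (alive), and EZH2, the Polycomb methyltransferase, had 0.732 (stillborn), 1.83 (spontaneous abortion) and 2.13 (alive). SUV39H1, a heterochromatin methyltransferase, was lowest by ratio, at a log2 ratio of -1.70. SETD2 was at -0.25, short of 2-fold.

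Cohesin and its loaders had a median of -0.47 for stillborn over alive, with 0 of 10 apart in either direction. The ring subunits RAD21 and SMC3 had log2 ratios of -0.93 and -0.66. In the Mediator kinase module the genes parted. MED12, its regulatory subunit, had RPKM 0.298 (stillborn), 0.997 (spontaneous abortion) and 1.47 (alive). The kinase CDK8 went the other way, at 17 (stillborn), 12.6 (spontaneous abortion) and 8.28 (alive), and was apart as higher for stillborn over alive. MED13, the paralog of MED13L, was at 18.6 (stillborn), 23.0 (spontaneous abortion) and 23.4 (alive), a log2 ratio of -0.17, where MED13L was at -0.78.

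Around TSC1 and TSC2, the mTOR list had 2 of 12 genes apart as lower and 1 as higher for stillborn over alive, with a median of -0.26. MLST8, an mTOR complex subunit, had 20 (stillborn), 76 (spontaneous abortion) and 104 (alive) reads. EIF4EBP1, a translation repressor that mTOR inactivates, had RPKM 21.1 (stillborn), 28.5 (spontaneous abortion) and 49.5 (alive). DEPTOR, an inhibitor of mTOR, was apart as higher in the stillborn library, with 54 (stillborn), 33 (spontaneous abortion) and 9 (alive) reads. RHEB, the activator that the tuberous sclerosis complex restrains, was at RPKM 39.3 (stillborn), 38.1 (spontaneous abortion) and 30.5 (alive). Relatives and partners of FMR1 had a median of -0.12, with 1 of 9 apart, CYFIP2, as higher. FXR1, its close relative, was near even at 15.9 (stillborn), 18.4 (spontaneous abortion) and 19.0 (alive).

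A further 40 genes tied to neurodevelopmental disorders gave a median of -0.43 over 33 compared, with 5 apart as lower and 2 as higher for stillborn over alive. RAI1, the gene of Smith-Magenis syndrome, had RPKM 0.390 (stillborn), 0.972 (spontaneous abortion) and 1.35 (alive). ZEB2, the zinc finger repressor of Mowat-Wilson syndrome, went the other way by the widest margin, at 3.26 (stillborn), 0.230 (spontaneous abortion) and 0.320 (alive), from 1423 (stillborn), 169 (spontaneous abortion) and 159 (alive) reads. Paralogs of the remaining genes, a list that also holds the chromatin regulator ASXL1, had a median of -0.24 over 14, with 3 apart as lower and 1, FBRSL1, as higher.

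**Figure D4:**
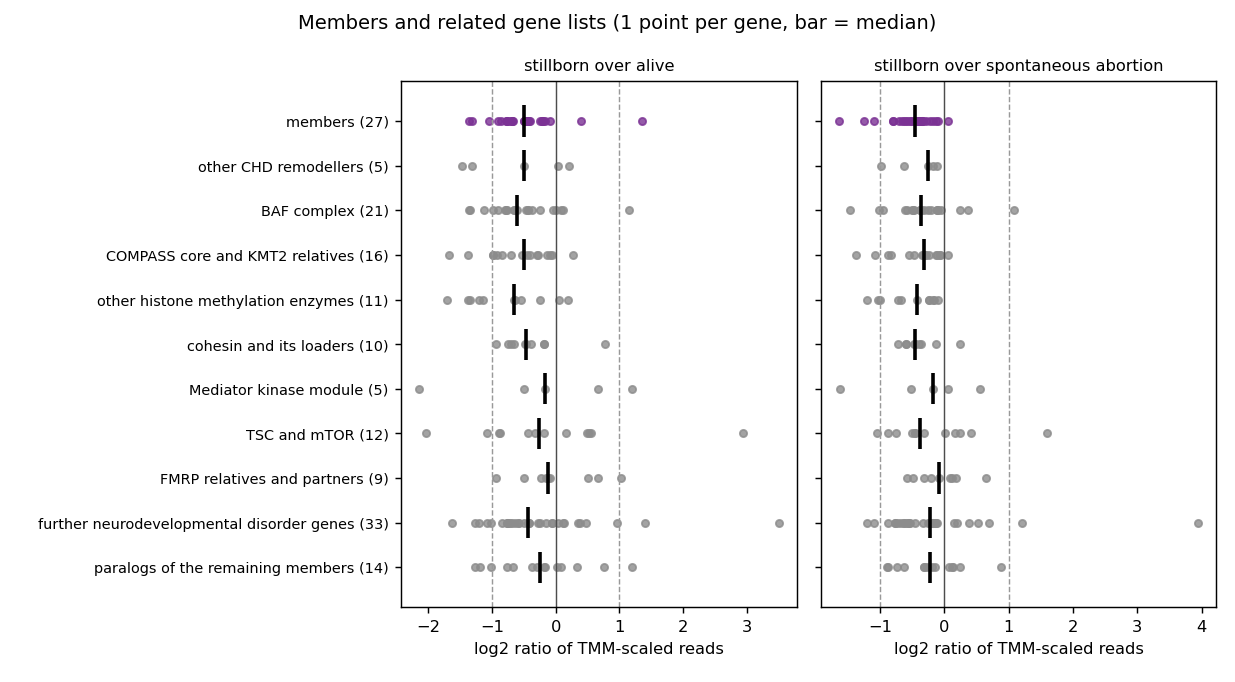
Log2 ratio of TMM-scaled reads for the 27 genes (purple) and for each list of related genes (grey), 1 point per gene with a bar at the median, for stillborn over alive and stillborn over spontaneous abortion. The number of genes compared stands beside each name, solid lines mark 0 and dashed lines mark 2-fold. The medians of all lists lie below 0 in both panels, and single genes lie far to the right.

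Several measured features of the libraries moved along with the low stillborn values, and their part in them was not tested. All 8 listed proliferation genes were apart as lower for stillborn over alive, with a median log2 ratio of -1.91 and a summed RPKM of 39.3 (stillborn), 123 (spontaneous abortion) and 160 (alive). For squamous epithelium 8 of 11 were apart as higher and 1 as lower, and the list summed to 993 (stillborn), 560 (spontaneous abortion) and 363 (alive). KRT5, a basal keratin, was the 1 that was lower. The leukocyte list summed to 57.8 (stillborn), 14.1 (spontaneous abortion) and 31.0 (alive), with CD3E, CD3D and MS4A1 at 0 in all libraries. For stillborn over alive 5 of its 8 genes compared were apart as higher, while GNLY and GZMB, genes of cytotoxic lymphocytes, were apart as lower. The fibroblast list summed to 3512 (stillborn), 3674 (spontaneous abortion) and 2454 (alive). VIM, which many cell types express, made up 3212 (stillborn), 3345 (spontaneous abortion) and 2231 (alive) of that, and DCN had 13.8 (stillborn), 20.9 (spontaneous abortion) and 22 (alive). The trophoblast list summed to 106 (stillborn), 131 (spontaneous abortion) and 141 (alive), and the glial list to 5.71 (stillborn), 3.59 (spontaneous abortion) and 2.97 (alive). On the trophoblast list CGA and CYP19A1 (listed as LOC103245629) were at 0 in all libraries. Most of each trophoblast sum came from GATA3, TFAP2A and KRT7. ERVFRD-1 went the other way from the sum, at 7.64 (stillborn), 4.76 (spontaneous abortion) and 5.18 (alive). For stillborn over alive 3 of the 5 trophoblast genes compared were below 1 and 2 above, against 51.0% and 49.0% of all genes, and 0 were apart.

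The length behind the RPKM values also went with the ratios. Over all genes with a recovered length of 20000 bases or more, 1902 in number, the median log2 ratio for stillborn over alive was -0.22, and 14.2% were at least 2-fold lower. Of the 27 genes, 22 had such a length, and their median was -0.48. In the class of 50000 bases or more, the median was -0.39 over 537 genes and -0.58 over the 14 of them described here. Between 20000 and 50000 bases it was -0.16 over 1365 genes and -0.45 over 8 of those described. For stillborn over spontaneous abortion the genes of 20000 bases or more had a median of -0.23, and the 22 one of -0.42. The part of the length in the shift was not tested.

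**Figure D5:**
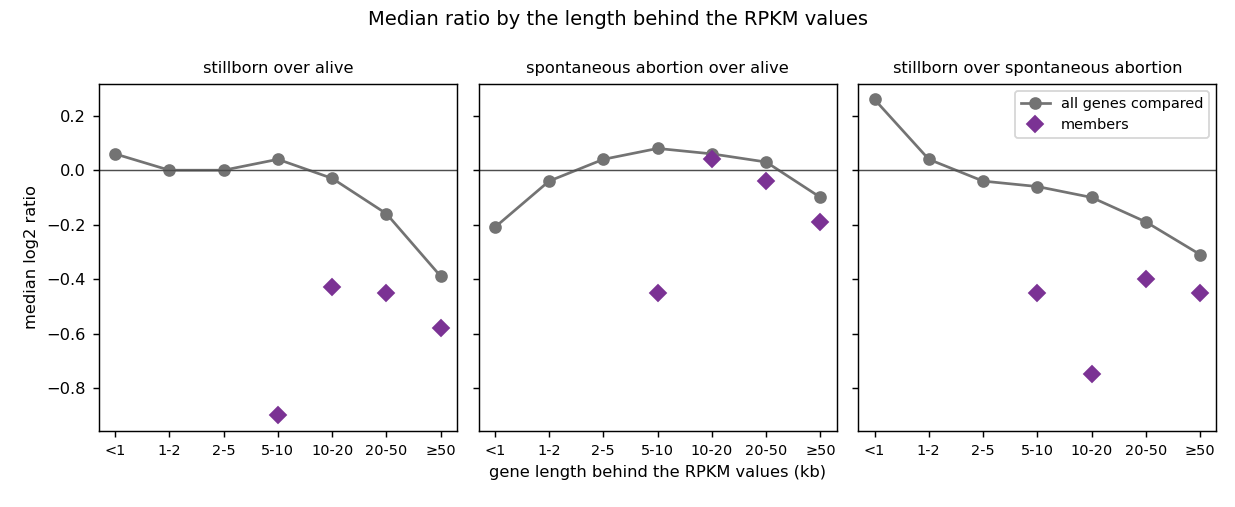
Median log2 ratio of TMM-scaled reads by class of the length behind the RPKM values (kilobases), for all genes compared (grey line) and for the neurodevelopmental disorder genes in the class (purple), in 3 panels, 1 per pair of libraries. For stillborn over alive the grey line is near 0 up to 20 kilobases and falls to -0.39 in the longest class, where the purple marker is at -0.58. The purple marker between 5 and 10 kilobases is KDM5B alone, and that between 10 and 20 stands for 4 genes.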

How the data were processed

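Per the submitters' processing notes, reads were handled with bcl2fastq 2.17, STAR and HTSeq. Not given in the sources used here are the versions of STAR and HTSeq, the build, the annotation, the strand setting and the step to RPKM. The deposited files hold 1 RPKM value per gene, a unit read from the values since no header names it. Library totals and, per gene, the smallest whole length giving whole reads in every library were solved for. This worked for 23275 of 23276 genes above 0, within the rounding of the printed digits and at most 0.01 reads. Recovered reads summed to 96.6% to 97.1% of the totals and are lower bounds, since a factor shared by reads and length cannot be seen. The procedure was also run on data simulated from the recovered reads and lengths with the same formula. Such a run cannot show that the unit, lengths or totals are right for the deposited files.

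TMM factors were 0.936 (stillborn), 1.02 (spontaneous abortion) and 1.05 (alive). A ratio with 0 reads in 1 library took 3 reads there, and none was given when both had 3 or fewer. Amplified reads without molecular identifiers are not independent molecules. The genes, related lists and markers were chosen with earlier results of these data known. All 30 genes are described, and of each related list up to 3 with the highest mean RPKM and up to 3 apart with the largest ratios could be named, of which 2 are not reported here. Symbols matched 154 of 161 related genes and 81 of 83 markers, in the files or through the NCBI RefSeq table of mChlSab1.0.hap1. Reads of close paralogs, overlapping or antisense genes cannot be told apart. Alternatives were other scalings, read minimums, fold limits and pseudocounts. Python 3.11.15, numpy 2.4.6, scipy 1.17.1 and numba 0.67.0 were used.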

Additional observations from a re-analysis of the deposited data

How the results depend on the processing

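Median-of-ratios size factors moved none of 81 single log2 ratios outside its interval, and total assigned reads moved 47 of 81, with 0 called values turning sign in either. On total assigned reads 5 genes were apart as lower for stillborn over alive, against 3 with TMM. Over all genes 14.9% were then lower and 9.49% higher. With a 4-fold limit 0 were apart for stillborn over alive, against 3.56% higher and 2.29% lower over all genes. For spontaneous abortion over alive 1 was apart, as higher, against 1.49% higher and 0.840% lower. For stillborn over spontaneous abortion 0 were apart, against 1.85% higher and 0.954% lower. With at least 300 summed reads, which leaves out GRIN2B, 1 was apart for spontaneous abortion over alive, against 3.87% higher and 2.42% lower over all genes, and 2 for stillborn over spontaneous abortion, against 3.82% higher and 4.18% lower. On log2(RPKM + 1) the median for stillborn over spontaneous abortion was -0.28, and over all settings run the medians were -0.67 to -0.39 for stillborn over alive, -0.14 to -0.07 for spontaneous abortion over alive and -0.58 to -0.28 for stillborn over spontaneous abortion. At RPKM 5 the number of genes at or above the level was 7 (stillborn), 10 (spontaneous abortion) and 10 (alive). With no read minimum 1 gene was apart as higher for stillborn over alive, against 0, namely SHANK3 with 6 reads (stillborn) and 0 (alive, taken as 3). Over all genes 15.9% were higher and 12.3% lower at that setting. A read minimum of 30 and libraries thinned to the smallest total kept each summed count within 1.5 times. No paired analysis was possible because each status has 1 library. No library could be left out without ending a comparison. Depth limits SHANK3, SCN2A and TBR1, with 10 or fewer reads in all.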
